A study of Homo sapiens with 6 samples.

Results

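DLD-1 is a human colorectal adenocarcinoma line with a mutated APC gene. The 40 genes described here copy the DNA or divide the cell, and they were taken by name from a list: every probe set whose only gene symbol in the platform annotation was a listed gene, with the brightest probe set kept for each gene. All 40 were found, by 41 probe sets, among 18404 genes with a symbol of their own and 32321 probe sets in all. Of these genes, 19 act before and during DNA synthesis (G1/S members) and 21 in G2 phase and mitosis (G2/M members), an assignment made from textbook knowledge and not from the arrays. For CHEK1, CCNA2, FOXM1 and MKI67, which act in more than 1 phase, it is a matter of choice. DLD-1/DKK1 cells carried a lentivirus that expresses DKK1 when doxycycline is given, and DLD-1/Mock cells the matching vector without DKK1. Both groups received doxycycline for a day, at 10 mg/ml according to the labels and at the same figure in micrograms per ml according to the methods. RNA of 3 dishes per group was hybridised to 6 whole-transcript arrays, and the protocols describe transduction of the culture with no step that picked a clone. The sources used here do not say how many transductions the dishes stem from, so p-values measure the spread between dishes.

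DKK1, a secreted inhibitor of Wnt signalling, served as the check of the labels. Its log2 expression was 5.15, 5.74 and 5.01 on the DLD-1/Mock arrays and 12.30, 12.38 and 12.36 on the DLD-1/DKK1 arrays. Epithelial markers were bright, with mean log2 levels from 9.90 to 12.88 over 6 genes, while the leukocyte markers PTPRC, CD3E, CD14 and CD68 lay at 4.34, 5.32, 6.23 and 7.35, against a median of 7.67 over all genes. Fibroblast markers spanned 4.19 to 7.45 and endothelial markers 4.98 to 6.17. The leukocyte markers had mean levels of 5.85 to 5.95 on the DLD-1/Mock arrays and 5.73 to 5.75 on the DLD-1/DKK1 arrays. Of these 4 markers, CD68 and CD14 were lower at an unadjusted p under 0.05, where 5.21% of all probe sets were. From DLD-1/Mock to DLD-1/DKK1 the mean level changed by -0.145 for leukocyte, -0.056 for fibroblast, -0.063 for endothelial and 0.0080 for epithelial markers. Without Mock 2 these changes were -0.110, -0.016, -0.017 and 0.0039. The part of such markers in the values below was not tested. Mock 2 stood apart, with a correlation of at most 0.9969 to any other array, and for some genes the value without it is also given. Because the arrays report RNA per dish, a different share of cells in a phase and a different amount of RNA per cell cannot be told apart.

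A dividing cell prepares its DNA for copying in G1 phase, when CDC6 and CDT1 load the MCM2 to MCM7 helicase onto origins, and starts forks in S phase with CDC45, the GINS complex and MCM10. Genes of this step are turned on by E2F factors once cyclin E and its kinase have freed them from the RB protein. Genes of mitosis are turned on later by B-MYB, FOXM1 and the NF-Y factor, and in resting cells they are held off by the DREAM complex, which binds a short promoter element called CHR. In the colon this program belongs to the lower crypt and is active throughout a growing cancer line.

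The promoters of the members were read first, because they are independent of the arrays. They were not used to assign the phases. Promoters from RefSeq (GRCh38.p14), 250 bases before to 50 after the start, were at hand for 33 members, 16 of G1/S and 17 of G2/M. The table had none for AURKA, BIRC5, CCNE2, FOXM1, MCM4, MCM5 and TPX2. Both strands were searched and overlapping matches were counted. For E2F the letters were TTTCCCGC, TTTCGCGC, TTTGCCGC or TTTGGCGC, for CHR they were TTTGAA or TTCGAA, and for the NF-Y box CCAAT. An E2F match was present in 12 of 16 G1/S promoters (75%) and in 0 of 17 G2/M promoters, against 4.53% of 14230 promoters of genes on the array. The G1/S promoters without an E2F match were those of MCM10, CDC45, CCNE1 and CHEK1. A CHR match was present in 11 of 17 G2/M promoters (64.7%) and in 1 of 16 G1/S promoters, that of MCM6, against 13.3%. The G2/M promoters without a CHR match were those of CCNA2, CCNB1, CDC25C, CENPE, AURKB and KIF20A. The NF-Y box was found in 12 of 16 G1/S promoters (75%) and 13 of 17 G2/M promoters (76.5%), against 36.3%. When every listed start of a gene was searched, the E2F and CHR counts were 12 of 16 and 1 of 16 for G1/S and 0 of 17 and 12 of 17 for G2/M. These are letter matches and not bound sites.

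**Figure D1:**
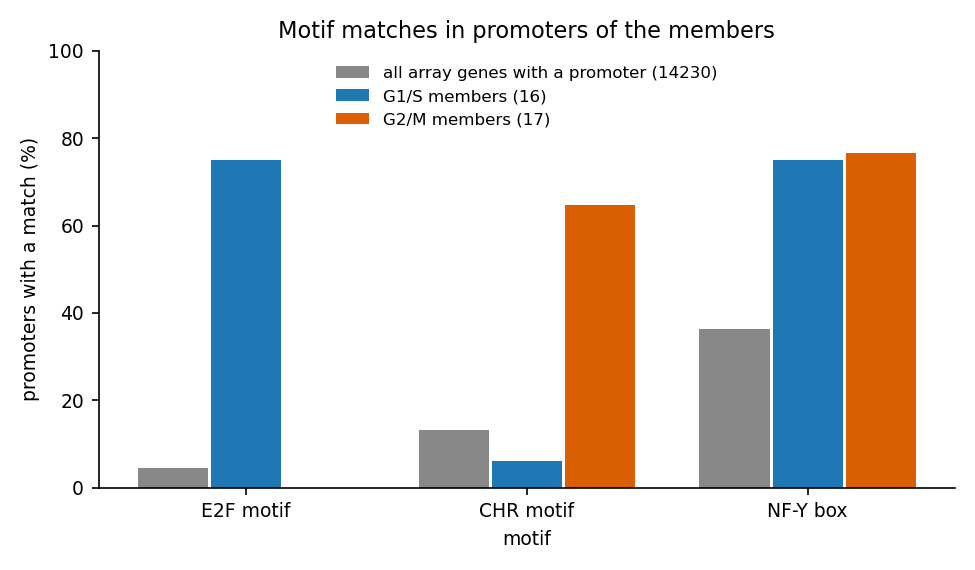
Share of promoters with at least 1 match (vertical axis, %) for 3 motifs, in all array genes with a promoter, in 16 G1/S members and in 17 G2/M members. E2F matches stand at 75% in G1/S and 0 in G2/M members, and CHR matches at 6.25% and 64.7%.

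The following stretches, all upstream of the annotated start and written 5′ to 3′ on the strand of the gene, show the elements of each group. Capitals mark E2F matches, CHR matches and NF-Y boxes. The first is from MCM6, a subunit of the replicative helicase, at chr2:135876514-135876603 (minus strand), where the same run of letters occurs at 2 places, each with an E2F match on either strand that overlap one another.
MCM6: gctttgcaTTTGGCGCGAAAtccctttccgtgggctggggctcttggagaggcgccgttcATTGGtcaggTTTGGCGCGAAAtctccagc
E2F1, itself an E2F factor, holds 2 E2F matches at chr20:33686386-33686445 (minus strand).
E2F1: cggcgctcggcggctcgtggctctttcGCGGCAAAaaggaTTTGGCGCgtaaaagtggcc
CDC25A, the phosphatase that activates CDK2, has an NF-Y box before its E2F match at chr3:48188418-48188477 (minus strand).
CDC25A: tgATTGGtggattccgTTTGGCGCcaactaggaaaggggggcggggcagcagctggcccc
PCNA, the sliding clamp of the DNA polymerases, has an NF-Y box on each side of its E2F match at chr20:5126623-5126702 (minus strand).
PCNA: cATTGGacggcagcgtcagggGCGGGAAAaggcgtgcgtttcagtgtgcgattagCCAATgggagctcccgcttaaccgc

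In the 4 mitotic promoters shown, which were picked as examples, a CHR match follows an NF-Y box. For MKI67 that box lies at -98 to -94, outside the printed stretch. Both elements were found in 9 of 17 G2/M promoters (52.9%) and 1 of 16 G1/S promoters, against 5.45% of promoters of genes on the array. Other members have the CHR match elsewhere, as at -65 to -60 in CDC20 and 40 to 45 in CENPF. In CCNB2, cyclin B2, there are 3 NF-Y boxes upstream of a CHR match at positions -29 to -24 from the start, within chr15:59105026-59105145 (plus strand).
CCNB2: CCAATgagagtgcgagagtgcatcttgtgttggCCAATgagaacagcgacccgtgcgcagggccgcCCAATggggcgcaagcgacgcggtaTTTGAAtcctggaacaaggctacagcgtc
PLK1, a kinase of mitotic entry and spindle assembly, has its CHR match at the same distance, -29 to -24, within chr16:23678809-23678888 (plus strand).
PLK1: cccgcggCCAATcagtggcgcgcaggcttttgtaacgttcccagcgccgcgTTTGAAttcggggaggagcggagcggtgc
MKI67, the Ki-67 antigen that coats mitotic chromosomes, has 2 CHR matches within chr10:128126424-128126503 (minus strand), the nearer of them again at -29 to -24 and overlapping an NF-Y box.
MKI67: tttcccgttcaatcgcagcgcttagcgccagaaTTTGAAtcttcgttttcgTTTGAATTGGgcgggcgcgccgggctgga
KIF23, a kinesin of the central spindle, is shown as a member with a single box close to its CHR match, within chr15:69414269-69414348 (plus strand).
KIF23: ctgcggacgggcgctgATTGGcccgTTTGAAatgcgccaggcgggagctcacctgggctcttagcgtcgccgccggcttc

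The mean log2 levels of the members ran from 7.66 for E2F2, a transcriptional activator of S-phase genes, to 12.00 for CDC20, the activator of the anaphase-promoting complex. The median level was 10.83 over the 40 members against 7.67 over all genes, and E2F2 lay at that median of all genes. Levels of different probe sets depend on the probes and give no order of transcripts.

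The comparison of DLD-1/DKK1 with DLD-1/Mock cells asked whether the expression of DKK1 went with another level of these genes. None of the 40 members passed an adjusted p of 0.05 in limma, where 0.0866% of all probe sets did, and the smallest adjusted p of a member was 0.524. At an unadjusted p under 0.05 there was 1 member higher in DLD-1/DKK1, CDC6, against a background of 4.02% of probe sets, and 0 lower, against 5.21%. With any 1 of the DLD-1/DKK1 arrays or Mock 3 left out, 0 members were higher at that threshold. In these fits 2.44% to 4.37% of probe sets were, and the log2 fold change of CDC6 was 0.085 to 0.106. The log2 fold changes ran from -0.077 to 0.13, and no 95% interval of a member reached below -0.17 or above 0.31, that is below 0.887-fold or above 1.24-fold. These intervals cover the spread between dishes.

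**Figure D2:**
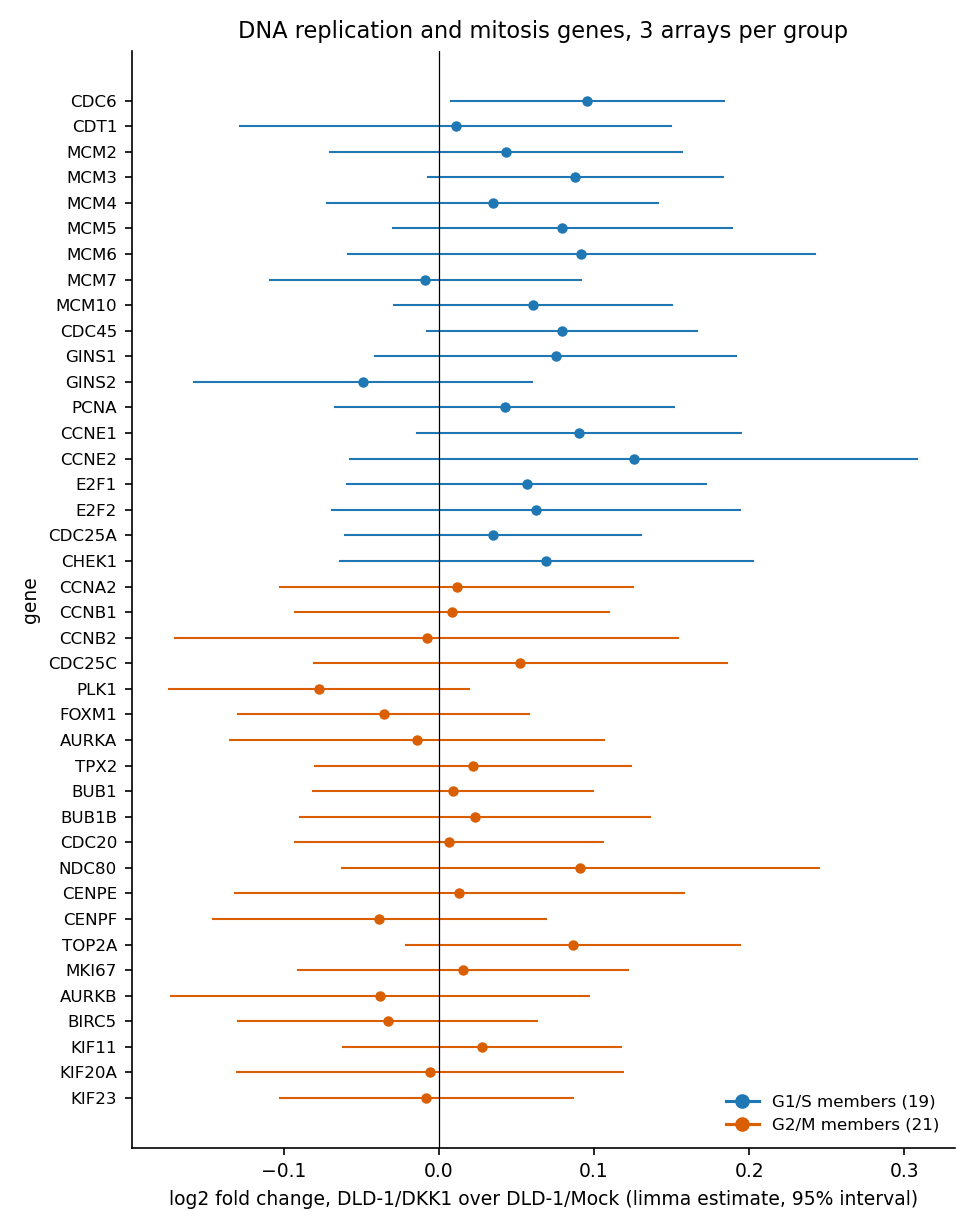
Each of the 40 members by its log2 fold change, DKK1 against Mock (horizontal axis), with points for the limma estimate and lines for its 95% interval, 3 arrays per group. CDC6 is the one member whose interval lies wholly above 0, and 17 of 19 G1/S and 12 of 21 G2/M estimates are above 0.

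The G1/S members lay above 0 more often than the G2/M members. Of the 19 G1/S members 17 had a fold change above 0 and the median log2 fold change was 0.063, while of the 21 G2/M members 12 were above 0 with a median of 0.0086. The G2/M count was 7 under quantile normalisation, 6 under cyclic loess and 9 with array weights, and the G1/S count was 17 in each of these. The median of all probe sets was -0.0013 under quantile normalisation, -0.00051 under cyclic loess and -0.0052 with array weights. In the fit as reported it was -0.0063, and 46.9% of all probe sets were above 0. Bright genes as a whole were shifted in the same direction, since 67.3% of the 3283 genes with a mean level of 10 or more were above 0, with a median of 0.023. Brightness thus moved with the sign of the fold change, and its part in the difference from all probe sets was not tested. The G1/S members had a median level of 10.40 and the G2/M members one of 10.88. In the G1/S group the lowest DLD-1/DKK1 array exceeded the highest DLD-1/Mock array for 7 of 19 members (36.8%), against 7.91% of all probe sets and 17.3% of genes with a mean level of 10 or more. In the G2/M group this was so for 1 of 21. The reverse order was seen for 0 of 19 G1/S and 1 of 21 G2/M members, where 8.55% of probe sets did.

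**Figure D3:**
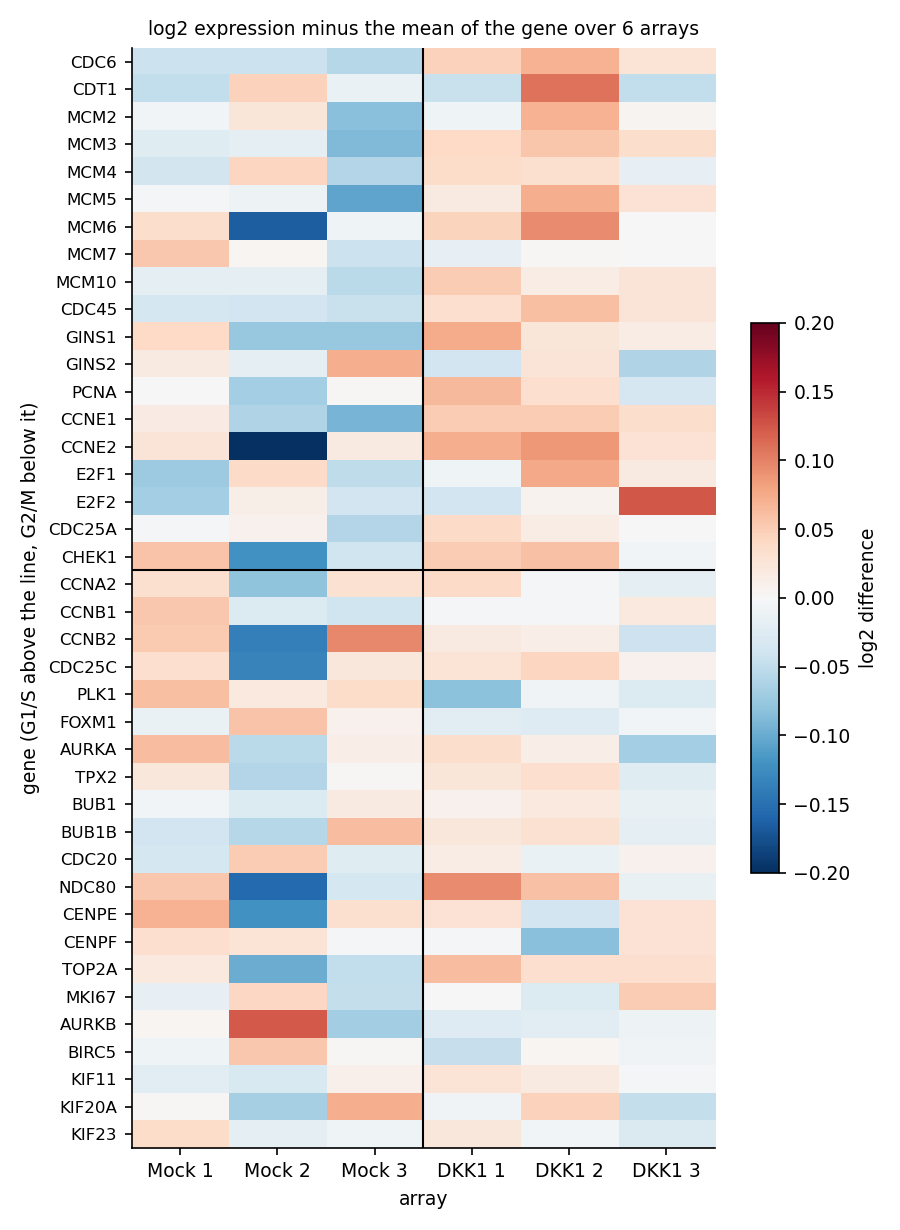
Log2 expression of each member on each array minus the mean of that gene over the 6 arrays (colour scale, ending at -0.2 and 0.2), with G1/S members above and G2/M members below the horizontal line. Mock 2 has the lowest value of 11 of the 21 G2/M members (it is lowest for 25.6% of all genes), Mock 3 the lowest of 11 of the 19 G1/S members (14.4%), and DKK1 2 the highest of 11 of the 19 G1/S members (16%).

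Among the licensing genes CDC6, the ATPase that recruits the helicase to origins, had the smallest p of all members. Its log2 expression was 11.27, 11.27 and 11.25 on the DLD-1/Mock arrays and 11.36, 11.38 and 11.34 on the DLD-1/DKK1 arrays. The groups did not overlap, and the log2 fold change was 0.096 (SE 0.037; limma adjusted p = 0.524). CDT1, the partner of CDC6 in loading, was at 8.76, 8.86 and 8.80 in DLD-1/Mock and at 8.77, 8.92 and 8.76 in DLD-1/DKK1. Here the groups overlapped, and the fold change of 0.011 on the log2 scale (SE 0.058) was smaller than its error.

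The helicase subunits MCM2 to MCM7 form a single ring in equal numbers, and 5 of the 6 had fold changes above 0, with a median of 0.061. MCM3 was at 11.14, 11.15 and 11.08 in DLD-1/Mock and at 11.21, 11.22 and 11.20 in DLD-1/DKK1. MCM5 was at 10.39, 10.39 and 10.29 in DLD-1/Mock and at 10.41, 10.47 and 10.42 in DLD-1/DKK1. For both subunits the groups did not overlap, with log2 fold changes of 0.088 (SE 0.040) and 0.080 (SE 0.046). MCM6 had 0.092 (SE 0.063), MCM2 0.043 (SE 0.047) and MCM4 0.035 (SE 0.045), all with overlapping groups. On Mock 2 the MCM6 value was 10.54, against 10.74 and 10.70 on the other DLD-1/Mock arrays, and without that array the MCM6 fold change was 0.033. Without Mock 3 the fold changes of MCM2, MCM4 and MCM5 were 0.012, 0.014 and 0.047. MCM7 had a log2 fold change of -0.0088 (SE 0.042).

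Among the fork genes CDC45, which joins the helicase ring with the GINS complex to make it active, was at 9.86, 9.86 and 9.85 in DLD-1/Mock and at 9.93, 9.96 and 9.92 in DLD-1/DKK1. The groups did not overlap, with a difference of 0.079 on the log2 scale (SE 0.036; adjusted p = 0.564 by limma). MCM10, which helps to start the forks and is no subunit of the ring, was at 10.17, 10.17 and 10.13 against 10.24, 10.20 and 10.21. Its groups did not overlap either, and the log2 fold change was 0.061 (SE 0.037). The GINS subunits had values on both sides of 0, with 0.075 (SE 0.049) for GINS1 and -0.049 (SE 0.045) for GINS2. PCNA had 0.042 (SE 0.046), and 0.019 without Mock 2.

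All 6 regulators of the G1/S step had fold changes above 0, with a median of 0.066. CCNE1 and CCNE2, the E cyclins that activate CDK2, were among those without overlap. CCNE1 was at 9.61, 9.53 and 9.50 in DLD-1/Mock and at 9.64, 9.64 and 9.62 in DLD-1/DKK1, a log2 fold change of 0.091 (SE 0.044). CCNE2 was at 10.15, 9.89 and 10.14 in DLD-1/Mock and at 10.20, 10.21 and 10.15 in DLD-1/DKK1. Its log2 fold change of 0.13 (SE 0.076; adjusted p = 0.634 by limma) was the largest of the members, and without Mock 2, the lowest array, it was 0.041. The E2F activators E2F1 and E2F2 had 0.057 (SE 0.048) and 0.063 (SE 0.055). CHEK1, the checkpoint kinase of stalled forks, had 0.069 (SE 0.056) and CDC25A 0.035 (SE 0.040), and for these 4 genes the groups overlapped. CHEK1 was at 0.026 without Mock 2, CDC25A at 0.015 without Mock 3 and E2F2 at 0.016 without DKK1 3. E2F1 rose to 0.090 without Mock 2.

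Genes of mitotic entry lay on both sides of 0, 4 above and 4 below, with a median of 0.00043. PLK1 was the one member whose DLD-1/DKK1 arrays all lay below the DLD-1/Mock arrays. Its log2 expression was 11.98, 11.94 and 11.96 in DLD-1/Mock and 11.84, 11.92 and 11.90 in DLD-1/DKK1, a difference of -0.077 on the log2 scale (SE 0.040; adjusted p = 0.594 by limma). CCNB1, cyclin B1, the partner of CDK1, was at 10.86, 10.78 and 10.77 in DLD-1/Mock and at 10.80, 10.80 and 10.83 in DLD-1/DKK1. The groups overlapped fully, with a log2 fold change of 0.0086 (SE 0.042). CCNB2 had -0.0078 (SE 0.068) and CCNA2, the cyclin of S and G2 phase, 0.012 (SE 0.047). FOXM1, a transcription factor of the mitotic genes, had -0.035 (SE 0.039), and CDC25C, the phosphatase that releases CDK1, 0.053 (SE 0.055). AURKA, a centrosome kinase, and TPX2, its activator on the spindle, had -0.014 (SE 0.050) and 0.022 (SE 0.042). Without Mock 2 the values were -0.0012 for CDC25C, -0.0016 for TPX2, -0.026 for CCNA2 and -0.078 for CCNB2.

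Genes of the kinetochore and of the spindle checkpoint were above 0 for 5 of 6, with a median of 0.011. NDC80, which links kinetochores to microtubules, had the largest value of this group, 0.091 (SE 0.064). It was at 9.45, 9.24 and 9.36 in DLD-1/Mock and at 9.49, 9.45 and 9.38 in DLD-1/DKK1, so the groups overlapped, and without Mock 2 the fold change was 0.037. The checkpoint kinase BUB1 had 0.0092 (SE 0.038), BUB1B, a subunit of the inhibitor of anaphase, 0.023 (SE 0.047), and CDC20, the target of that inhibitor, 0.0067 (SE 0.041). CENPE, a kinetochore motor, had 0.013 (SE 0.060) and CENPF, a kinetochore protein of G2 phase, -0.038 (SE 0.045). Without Mock 2 CENPE was at -0.044.

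Genes of chromosome structure and cytokinesis were above 0 for 3 of 7. TOP2A, the topoisomerase that untangles sister chromatids, was at 11.69, 11.57 and 11.62 in DLD-1/Mock and at 11.74, 11.71 and 11.71 in DLD-1/DKK1. It was the one G2/M member that was higher on every DLD-1/DKK1 array than on any DLD-1/Mock array, with a difference of 0.087 on the log2 scale (SE 0.045; adjusted p = 0.593 by limma). Without Mock 2 the TOP2A difference was 0.058. MKI67, in common use as a marker of cycling cells, was at 11.36, 11.42 and 11.33 in DLD-1/Mock and at 11.38, 11.35 and 11.43 in DLD-1/DKK1. Its groups overlapped, and the log2 fold change of 0.016 (SE 0.044) had a 95% interval of -0.091 to 0.12. AURKB, the kinase of the chromosomal passenger complex, had -0.038 (SE 0.056), and BIRC5, survivin, a subunit of the same complex, -0.033 (SE 0.040). Without Mock 2 AURKB was at 0.014. A second and dimmer probe set of BIRC5 had 0.0063 (SE 0.087). The kinesins KIF11, which pushes the spindle poles apart, KIF20A and KIF23, which act in cytokinesis, had 0.028 (SE 0.037), -0.0057 (SE 0.052) and -0.0079 (SE 0.039).

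Averaged over its genes, each group of members gave 1 level per array. The G1/S mean was 10.36, 10.33 and 10.32 on the DLD-1/Mock arrays and 10.39, 10.42 and 10.38 on the DLD-1/DKK1 arrays, a difference of 0.057 with no overlap. The G2/M mean was 10.89, 10.83 and 10.87 against 10.88, 10.87 and 10.86, so that the groups overlapped, with a difference of 0.0053, or -0.0098 without Mock 2. As the members were chosen with results known, these means are given without a test. Subtracting the G2/M mean from the G1/S mean within an array removes any shift shared by the array. That difference was -0.527 ± 0.023 in DLD-1/Mock cells and was -0.475 ± 0.018 in DLD-1/DKK1 cells (SD, n = 3 each), without overlap. It changed by 0.052 between the groups, and by 0.063 without Mock 2. The difference of the medians of the G1/S and G2/M members was 0.054, and without Mock 3 it was 0.034. Without Mock 2 the G1/S members were still above 0 for 17 of 19, with a median of 0.065, whereas the G2/M members were above 0 for 7 of 21, with a median of -0.0027. After centring each array on its median, which moved the median of all probe sets from -0.0063 to 0.046, the members above 0 were 19 of 19 in G1/S and 20 of 21 in G2/M. Centring adds the same amount to the fold change of every gene, so it leaves the difference between the groups of members as it is by construction.

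**Figure D4:**
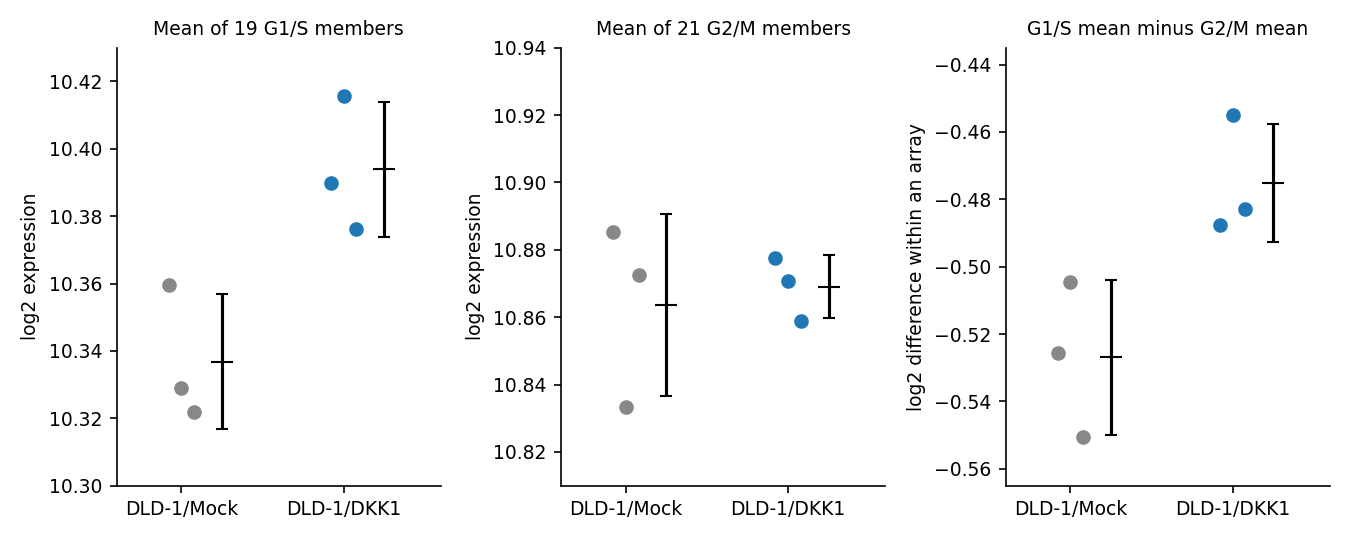
Mean log2 expression of the 19 G1/S members (left) and the 21 G2/M members (middle), and the difference of these means within each array (right), on vertical axes that do not start at 0. Points are arrays 1 to 3 from left to right in each group and the bar with whiskers is the mean ± SD (n = 3). The DLD-1/DKK1 points lie above all DLD-1/Mock points on the left and on the right, and overlap them in the middle.

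Other genes of the same pathways, listed by their function, were then set beside the members. Of 40 further replication genes (origin recognition, DNA polymerases, clamp loaders, replication protein A, chromatin assembly) 36 had fold changes above 0, with a median of 0.054. Their mean level was 9.68, 9.59 and 9.66 in DLD-1/Mock and 9.72, 9.70 and 9.66 in DLD-1/DKK1, so the groups overlapped. This mean differed by 0.051 between the groups, and by 0.027 without Mock 2. Higher DLD-1/DKK1 values without overlap were seen for 5 of the 40 (12.5%), against 7.91% of probe sets and 17.3% of bright genes. The reverse was seen for 0 of the 40. None passed the adjusted p and 1 of 40 was higher at an unadjusted p under 0.05, where 4.02% of probe sets were, namely DNA2, a nuclease and helicase of Okazaki fragment processing. DNA2 was at 8.79, 8.83 and 8.80 in DLD-1/Mock and at 8.89, 8.92 and 8.88 in DLD-1/DKK1, a difference of 0.095 on the log2 scale (SE 0.038; adjusted p = 0.531 by limma). Of 5 genes that supply nucleotides (RRM1, RRM2, TYMS, TK1 and DUT) 4 were above 0, with a median of 0.061, and none had an unadjusted p under 0.05.

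Of 46 further mitosis genes 24 were above 0 and 22 below, with a median of 0.0011. None passed the adjusted p, and 2 of 46 were lower at an unadjusted p under 0.05, where 5.21% of probe sets were. CDC25B, the phosphatase that starts CDK1 activation at the centrosome, had the smallest p of all the listed cell cycle genes. It was at 9.87, 9.90 and 9.88 in DLD-1/Mock and at 9.56, 9.64 and 9.62 in DLD-1/DKK1. The groups did not overlap, with a difference of -0.27 on the log2 scale (SE 0.040; adjusted p = 0.123 by limma). NCAPH, a subunit of condensin, had -0.098 (SE 0.038; limma adjusted p = 0.525). Within arrays, the mean of the further replication genes minus the mean of the further mitosis genes was -0.437 ± 0.011 in DLD-1/Mock cells against -0.396 ± 0.012 in DLD-1/DKK1 cells (SD, n = 3 each), again without overlap.

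Of 28 genes that control the cycle (D cyclins, their kinases, the RB family, other E2F factors, the MuvB core and CDK inhibitors) 16 were above 0, with a median of 0.0074. None passed the adjusted p. At an unadjusted p under 0.05, 1 of 28 was higher and 1 lower, where 4.02% and 5.21% of probe sets were. Without overlap, 2 of 28 (7.14%) were higher and 2 (7.14%) lower, against 7.91% and 8.55% of probe sets. E2F5, a repressive E2F factor, was at 10.03, 9.78 and 9.89 in DLD-1/Mock and at 10.10, 10.14 and 10.01 in DLD-1/DKK1, with a difference of 0.18 on the log2 scale (SE 0.073; adjusted p = 0.533 by limma). PKMYT1, a kinase that keeps CDK1 inactive, was at 9.29, 9.36 and 9.38 in DLD-1/Mock and at 9.19, 9.24 and 9.26 in DLD-1/DKK1, with -0.12 (SE 0.044; limma adjusted p = 0.524). The groups of E2F5 overlapped and those of PKMYT1 did not.

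**Figure D5:**
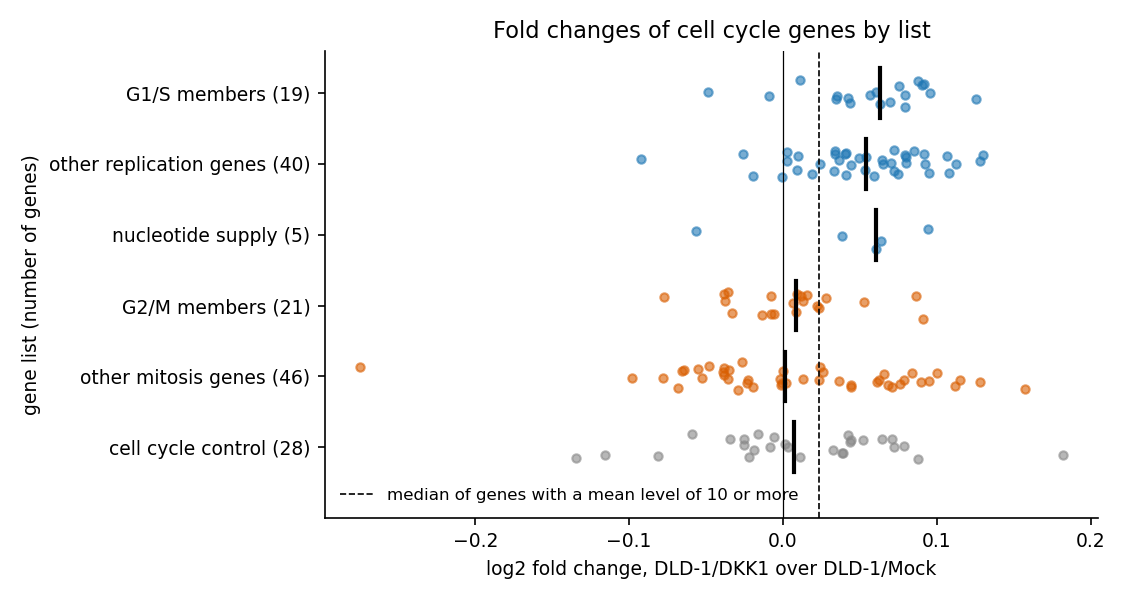
Genes of 6 lists by their log2 fold change, DKK1 against Mock (horizontal axis), where points are genes, bars are list medians and the dashed line stands for the median of all genes with a mean level of 10 or more, 0.023. The replication lists have medians of 0.063, 0.054 and 0.061, the mitosis lists 0.0086 and 0.0011, and CDC25B lies lowest at -0.27.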

How the data were processed

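Affymetrix Human Gene 1.0 ST arrays measured the RNA of 3 DLD-1/Mock dishes and of 3 DLD-1/DKK1 dishes. The authors read the raw scans with the affy package of R and made the deposited log2 values by robust multichip average, a method that equalises the probe intensities of all arrays and so would take out a change common to most transcripts. Their versions are not given in the sources used here. No further normalisation was applied, and precision is limited by the number of arrays.

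Groups came from the titles. All 32321 probe sets were fitted with limma 3.58.1 in R 4.3.3 (lmFit, eBayes; 4 residual and 2.56 prior degrees of freedom), two-sided, with Benjamini-Hochberg adjustment over all of them. The steps were tested on simulated data. Symbols were updated through the gene number where the current gene table held it. Some genes of the further lists are not reported here. All members are named, together with DKK1 and, from each further list, up to 2 genes per direction with the smallest p under 0.05. The members and the lists were chosen with earlier results of these data known. Promoters were searched in Python 3.11.15, and for genes with several starts the first one listed was used. Alternatives covered normalisation, filters, the prior, array weights, a replicate block, the probe set per gene, the phase lists and each array left out.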

Additional observations from a re-analysis of the deposited data

How the results depend on the processing

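No member passed an adjusted p of 0.05 under any alternative. Members higher at an unadjusted p under 0.05 were 1 as reported, 0 under quantile normalisation, cyclic loess or the replicate block, 2 above the median brightness or with array weights, 3 with a trended and robust prior, 7 under median centring and 0 to 2 with an array left out. The share of all fitted probe sets higher at that threshold was 4.02% as reported. It was 4.62% with the trended and robust prior and 9.5% under median centring. Quantile normalisation gave 4.33%, cyclic loess 4.38%, the block 3.14%, the brighter probe sets 6.41% and array weights 4.52%. With an array left out the share ran from 2.44% to 4.37%. Members lower were 1 under cyclic loess and with the trended and robust prior, where 4.18% and 4.67% of probe sets were, and otherwise 0. The block cannot move a fold change in this balanced design, and it reduced the probe sets called from 28 to 1. After centring within groups, same-numbered arrays correlated at 0.10, 0.0082 and -0.14, and arrays of different number at -0.23 to 0.23. These values cannot show whether same-numbered dishes were handled together, and the sources used here name no pairing. Median centring gave medians of 0.115 (G1/S) and 0.061 (G2/M), and the G2/M median was -0.012 under cyclic loess and -0.011 with array weights. With arrays left out the medians ran from 0.054 to 0.070 (G1/S) and -0.0027 to 0.021 (G2/M), and their difference from 0.034 to 0.067.

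Median centring added one constant to every gene, which by construction took above 0 the members slightly below it: MCM7 (0.044), GINS2 (0.0038), CCNB2 (0.045), FOXM1 (0.017), AURKA (0.039), CENPF (0.014), AURKB (0.015), BIRC5 (0.020), KIF20A (0.047) and KIF23 (0.045). Under quantile normalisation the sign turned for CCNA2 (-0.0065), CCNB1 (-0.0056), BUB1 (-0.0070), CDC20 (-0.0058) and CENPE (-0.00025). Under cyclic loess it turned for CCNA2 (-0.0094), CCNB1 (-0.012), BUB1 (-0.012), CDC20 (-0.014), CENPE (-0.00063) and MKI67 (-0.0054), and with array weights for CCNA2 (-0.011), CCNB1 (-0.011) and CENPE (-0.030). With arrays left out the ranges that crossed 0 were -0.041 to 0.038 for CDT1, -0.033 to 0.016 for MCM7, -0.026 to 0.030 for CCNA2, -0.0088 to 0.037 for CCNB1, -0.078 to 0.038 for CCNB2, -0.0012 to 0.082 for CDC25C, -0.044 to 0.017 for AURKA, -0.0016 to 0.040 for TPX2, -0.0020 to 0.021 for BUB1, -0.0091 to 0.033 for CDC20, -0.044 to 0.052 for CENPE, -0.0060 to 0.040 for MKI67, -0.082 to 0.014 for AURKB, -0.041 to 0.029 for KIF20A and -0.021 to 0.0087 for KIF23. Apart from median centring, the cause was not tested.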
